A study of Rattus norvegicus with 180 samples.

Results

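miR-143, miR-145 and miR-490, miRNAs known from smooth muscle, were followed through the organs of the male rat. They were taken by name, as rno-miR-143, rno-miR-145 and rno-miR-490 without the starred strands, and are 3 of the 717 miRNAs of the array design. Levels came from 180 1-color miRNA arrays of male Sprague-Dawley rats aged 10 weeks. Of these, 165 arrays held 55 organs of rats 4, 5 and 6, which had been perfused with saline, so each organ had 3 arrays. The other 15 arrays came from rats 1, 2 and 3, which had not been perfused, and held their heart cardiac atrium, heart interventricular septum, lung, kidney and liver. No other treatment is named in the labels. The aorta and vein were abdominal, the stomach was split into an anterior and a glandular part, and the 6 parts of the intestine were scraped mucosal tissue rather than whole wall, which limits them as samples of gut smooth muscle.

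miRNAs are short RNAs that pair with messenger RNAs, mainly through their seed (bases 2 to 8), and lower the amount of protein made from them. miR-143 and miR-145 are cut from neighbouring hairpins of a shared transcript that serum response factor and myocardin switch on in smooth muscle, and they favour the contractile over the proliferating form of the vascular smooth muscle cell. miR-490 lies in the gene of the M2 muscarinic receptor, Chrm2, which answers acetylcholine in the heart, in smooth muscle of the gut and bladder and in neurons.

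The mature sequences are shown because the 3 miRNAs have different seeds. They are printed 5′ to 3′ from RefSeq (build GRCr8) with the seed in capitals.
rno-miR-143 (miR-143-3p): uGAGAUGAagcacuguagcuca
rno-miR-145 (miR-145-5p): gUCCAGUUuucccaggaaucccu
rno-miR-490 (miR-490-3p): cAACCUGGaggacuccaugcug
rno-miR-490* (miR-490-5p): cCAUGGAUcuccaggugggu
The fourth sequence is the partner strand of the miR-490 hairpin and is shown because it was measured by probes of its own in the same organs. All 3 members and miR-490* were matched, through the older naming in which the starred strand is the minor arm, since the bases of the array probes were not used here. None of these seeds occurs in another of the 724 mature rat miRNAs of the table (0 for each). Mature miR-143 lies at chr18:57371373-57371394 and miR-145 at chr18:57370033-57370055, both on the minus strand, and their hairpins are 1278 bases apart within the span of the long noncoding RNA gene Carmn. miR-490 lies at chr4:66014644-66014665 on the plus strand within the span of Chrm2.

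Signals are given as background-corrected spot intensity scaled to the same level on each array, in arbitrary units that compare arrays for a given miRNA but not miRNAs with each other. A miRNA was taken as detected on an array where the scanner software marked more than 50% of its spots as well above background. The 180 arrays lay on 23 slides, between 86 and 244 miRNAs were detected per array, and pancreas, whose scaling percentile was between 68.0 and 121 before scaling, was the dimmest organ. For 8 arrays the labels give 2 rat numbers. Tests between organs were limma fits over 345 miRNAs, with p adjusted by Benjamini-Hochberg over all 345. Their error is the spread between the 3 rats within an organ, pooled over all organs. The main fit had no term for the rat, so arrays of a rat counted as independent. The spread between the organs of a group is not part of this error. A p for a group therefore holds only for the organs sampled. In bulk tissue, fewer cells of a type and less RNA per cell cannot be told apart, in any of the comparisons given here.

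miR-143 was detected on 163 of the 165 arrays of perfused rats, and on all 3 arrays of 54 organs. The exception was pancreas, with 1 of 3 arrays. The highest organ was the anterior stomach, at 22758, 23858 and 29022 in rats 4, 5 and 6. The urinary bladder gave 24921, 26108 and 20293, and the seminal vesicle 18267, 21881 and 22359. The bladder overlapped with both of the others, and the anterior stomach lay wholly above the seminal vesicle and 53 organs in all. The aorta followed at 15887, 14649 and 10231, the vein at 14474, 7215 and 10933, and the epididymis at 10657, 8645 and 9958. The rats of the vein spanned those of the epididymis, so these neighbours in the order could not be separated.

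The lowest organ was the pituitary gland, at 108, 126 and 117, wholly below all 54 others. Organ means ran from 117 to 25213, a 215-fold range, with a median of 1550. Between neighbours in the order of organs the 3 rats did not overlap at only 7 of 54 steps. The steps included seminal vesicle above aorta, prostate other lobes above white adipose tissue, white adipose tissue (6291 to 6780) above Harderian gland (3640 to 4443), and rectum above pituitary gland. Differences between organs were called for miR-143 (F = 52.2, limma's adjusted p = 3.88e-59), as for 344 of the 345 miRNAs tested (99.7%), and 185 miRNAs had a larger F.

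miR-145 was detected on 118 of 165 arrays, on all 3 arrays of 30 organs, on some arrays of 19 and on none of 6. The same hollow organs and vessels led. The urinary bladder gave 815, 882 and 468, the anterior stomach 582, 587 and 797, and the seminal vesicle 433, 585 and 359. The aorta gave 456, 245 and 581, and the vein 407, 138 and 244. Bladder and seminal vesicle overlapped with each other and with the anterior stomach and the aorta, whereas the anterior stomach lay just above the aorta on every array. The rats of the vein overlapped with those of the aorta. No array of liver, thymus, hippocampus, pituitary gland, rectum or pancreas detected miR-145. In pancreas the scaled signal was between 126 and 160 without being well above background, so its place as the eighth organ has no meaning. The F over organs was 29.1 (limma's adjusted p = 3.93e-46), with 276 miRNAs above it.

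**Figure D1:**
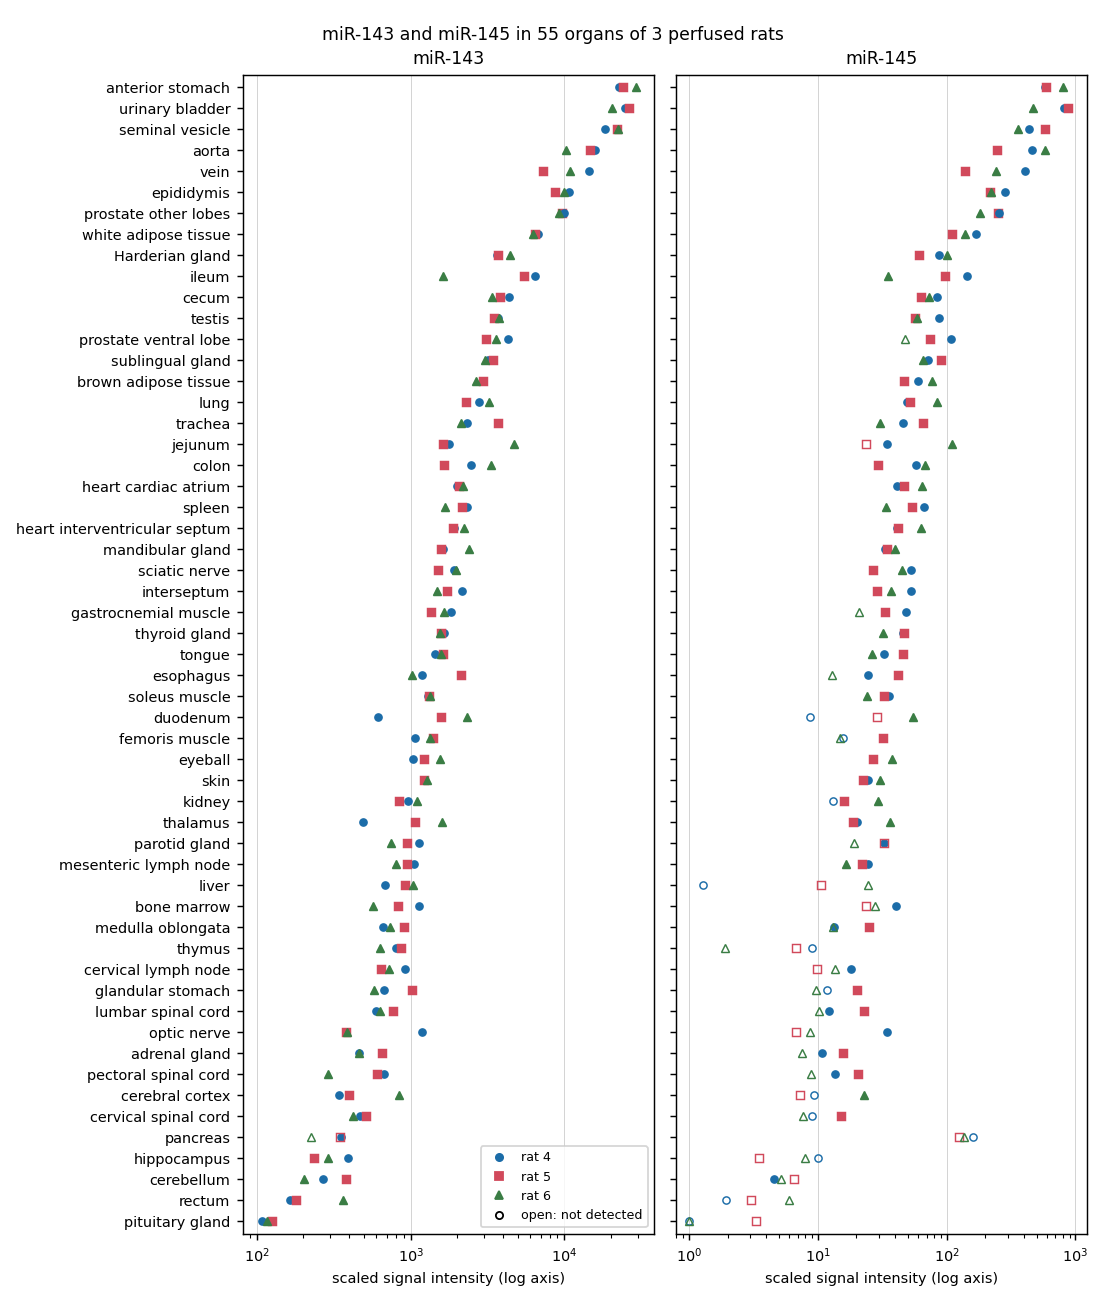
Scaled signal of miR-143 (left) and miR-145 (right) on log axes in 55 organs, ordered by miR-143, with 1 point per perfused rat and open points where the miRNA was not detected. Values under 1 are drawn at 1. Anterior stomach, bladder, seminal vesicle, aorta and vein lead in both panels, and the points of miR-145 in pancreas are open.

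The 2 clustered miRNAs moved in step in the organs where both were detected. Over the 30 organs in which both were detected on all arrays, the organ means of log2 signal had a Pearson correlation of 0.993, given as a description over points that share arrays and scaling. Within organs, the deviations of 90 arrays from their organ mean still correlated at 0.692. The log2 difference of miR-145 from miR-143 within an array, in which the scaling cancels, had organ means from -5.87 in trachea to -5.05 in aorta, a range of 0.82 log2 units. Over the same organs miR-143 alone ranged over 4.76 log2 units. The spread of the difference between rats of an organ was 0.32 log2 units (SD). The planned permutation test within rats, over all 55 organs, gave F = 13.1 (permutation p = 1e-05, the smallest the permutations can give). That set holds the organs in which miR-145 was not detected and was set to the floor of the scale. Over the 30 organs, a set chosen by detection after the data were seen, the same test gave F = 0.918 (permutation p = 0.50). In aorta the 3 rats spanned -5.90 to -4.14, the widest of these organs by SD (0.88).

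**Figure D2:**
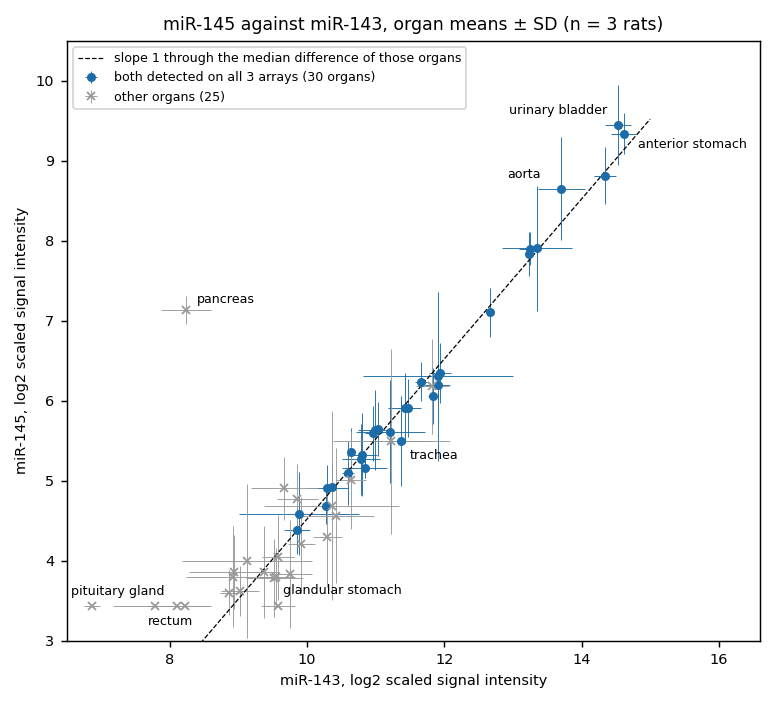
Organ mean log2 signal of miR-145 against miR-143, with bars of 1 SD over 3 rats. Filled points are the 30 organs with both miRNAs detected on all 3 arrays, crosses the other 25, and the dashed line has slope 1 through the median difference of -5.48 log2 units. Filled points follow the line over 4.76 log2 units, the lowest crosses lie at the floor of miR-145, and pancreas lies far above the line.

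A group of 5 organs, called smooth-walled here, was higher on average in miR-143 and miR-145 than the other 50, though not organ by organ. Of the 5, the glandular stomach ranked 44 of 55 for miR-143. The other 50 also held organs with smooth muscle in their walls. Among these, seminal vesicle, epididymis and prostate other lobes ranked 3, 6 and 7 of 55 for both miRNAs. The mean of aorta, vein, urinary bladder and both stomach parts exceeded the mean of the other 50 organs by 2.71 log2 units for miR-143 (SE 0.11, 6.55-fold, limma's adjusted p = 3.82e-45) and by 2.72 for miR-145 (SE 0.14, 6.60-fold, adjusted p = 4.58e-37). In all 3 rats the direction was the same for both. The size for miR-145 is uncertain, since many of the other organs held arrays on which it was not detected. That size ran from 1.61 to 4.17 log2 units over the alternatives run, with a call in each. Of all miRNAs tested, 12.8% were called higher in this comparison, and the median difference over them was -0.32. miR-490 was above the floor in anterior stomach and bladder alone of these 5 organs. Its fitted difference therefore depends on the floor and is given only beside its alternatives, in the section on processing below.

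Against limb skeletal muscle (femoris, gastrocnemial and soleus), the smooth-walled organs were higher by 2.71 log2 units for miR-143 (SE 0.17, limma's adjusted p = 2.85e-29) and by 3.08 for miR-145 (SE 0.21, adjusted p = 2.38e-26). In this comparison 24.6% of miRNAs were called higher. The size for miR-145 ran from 1.63 to 4.09 log2 units over the alternatives run, with a call in each. Femoris and gastrocnemial muscle held arrays on which miR-145 was not detected. In soleus, miR-143 lay between 1297 and 1339, below every array of the 5 smooth-walled organs except those of the glandular stomach. Of the 6 striated muscle miRNAs that served as markers, 5 were called lower in the smooth-walled organs, against 25.2% of all miRNAs, with a median difference of -7.31 against 0.00 over all miRNAs tested.

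Within the stomach the contrast was steep. In the glandular stomach miR-143 gave 674, 1015 and 582, and miR-145 gave 11.9, 20.3 and 9.69 with 1 of 3 arrays detected. These values lay wholly below those of the anterior stomach given above. The anterior part was higher by 5.09 log2 units for miR-143 (SE 0.33, 34.1-fold, limma's adjusted p = 9.67e-28) and by 5.56 for miR-145 (SE 0.41, adjusted p = 1.18e-23), against a glandular part in which 2 of 3 arrays were not above background. Both parts of a rat shared a slide in 3 of 3 rats, and the differences within a slide ran from 4.55 to 5.64 for miR-143 and from 4.85 to 6.20 for miR-145. Of all miRNAs 12.8% were called higher in the anterior part. The size for miR-145 is therefore uncertain, and it ran from 2.43 to 6.84 over the alternatives run, with a call in each.

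Markers of other cell types moved with this comparison. The summed signal of 9 epithelial miRNAs (the miR-200 family, miR-192, miR-194, miR-203 and miR-205) was 18194 to 28744 in the glandular stomach and 2876 to 3616 in the anterior stomach, with 9 and 7 of 9 detected on all arrays. The 6 striated muscle miRNAs summed to 29.0 to 42.5 in the glandular and 968 to 1153 in the anterior part, and miR-133a, miR-206 and miR-208 were detected on no array of either. Of this list 2 of 6 were higher in the anterior part, miR-133b by 5.76 log2 units (limma's adjusted p = 4.41e-07) and miR-1, which smooth muscle also makes, by 3.16 (adjusted p = 0.0102). miR-1 was detected on no array of the glandular part, so the size of its difference rests on the floor. The 4 mesenchymal miRNAs (miR-199a-3p, miR-199a-5p, miR-214 and miR-152) summed to 393 to 672 in the glandular and 1009 to 1265 in the anterior part. Their part in the result was not tested.

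The urinary bladder, whose detrusor is a thick layer of smooth muscle, exceeded the mean of both stomach parts by 2.46 log2 units for miR-143 (SE 0.29, limma's adjusted p = 1.16e-12) and 2.88 for miR-145 (SE 0.36, adjusted p = 1.49e-11), where 13.6% of miRNAs were called higher. This difference rested on the glandular stomach. Against the anterior stomach alone it was -0.09 for miR-143 and 0.10 for miR-145, both with an adjusted p of 1. The arrays of bladder and anterior stomach overlapped for both. Between bladder and both stomach parts, 3 of the 4 mesenchymal markers were called higher and 0 lower (median difference 1.64). Of the 9 epithelial markers 1 was called higher and 8 lower. The part of these markers in the result was not tested.

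The vessels were compared with these hollow organs in the same way. Aorta and vein exceeded the mean of bladder and both stomach parts by 0.64 log2 units for miR-143 (SE 0.21, limma's adjusted p = 0.0106) and by 0.75 for miR-145 (SE 0.27, adjusted p = 0.0161), with 12.5% of miRNAs called higher. The direction was the same in 3 of 3 rats for miR-143 and in 2 of 3 for miR-145. For miR-145 only 12 of 18 alternatives kept direction and call. Normexp, another background correction, turned its direction. The call was lost with a floor 4 times as high and with the authors' table (1.76). Without the glandular stomach the direction turned, to -1.04 for miR-143 (adjusted p = 1.56e-04) and -1.11 for miR-145 (adjusted p = 0.00148). All arrays of aorta and vein lay below all arrays of bladder and anterior stomach for miR-143. Without rat 4 the main difference was 0.43 for miR-143 (adjusted p = 0.251) and 0.49 for miR-145 (adjusted p = 0.385), and without rat 6 it was 0.51 for miR-145 (adjusted p = 0.169). The epithelial markers summed to 14.0 to 29.5 in aorta and 66.5 to 75.6 in vein, against 1625 to 2251 in bladder. Both stomach parts lay higher still. The sum of 2 endothelial miRNAs was 147 to 363 in aorta and 1610 to 2039 in vein. It ran from 156 (glandular stomach) to 729 (bladder) in the hollow organs. All 4 mesenchymal markers were called higher in the vessels (median difference 1.48), against 12.5% of all miRNAs. The part of these markers in the result was not tested.

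Between aorta and vein no difference was called. miR-143 was higher in aorta by 0.35 log2 units (95% interval -0.31 to 1.01, limma's adjusted p = 0.894), with 2 of 3 rats in that direction. miR-145 was higher by 0.75 (interval -0.07 to 1.57, adjusted p = 0.267), with 3 of 3 rats. In this comparison 1.45% of miRNAs were called higher in aorta, and most of the miRNAs called in either direction were lower there. The outcome depended on the scaling, since the 75th percentile over all miRNAs gave called differences of 1.49 for miR-143 (adjusted p = 4.45e-04) and 1.89 for miR-145 (adjusted p = 3.93e-06). The vein also held more of the 2 endothelial miRNAs, with a summed signal of 1610 to 2039 against 147 to 363 in aorta, and the part of this in the comparison was not tested.

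Along the scraped gut, miR-143 varied widely between rats, and the rectum was the lowest region. The ileum gave 6476, 5489 and 1618, the jejunum 1780, 1632 and 4727, and the duodenum 618, 1584 and 2309. The cecum gave 4359, 3792 and 3386, and the colon 2457, 1648 and 3314. Arrays of all 5 of these regions lay between 618 and 6476, and those of the rectum below them at 165, 181 and 363. For miR-145 the rectum was detected on 0 of 3 arrays, so that the cecum (84.9, 63.9 and 73.1) was at least 10.7-fold higher and the ileum (144, 98.1 and 35.0) at least 11.5-fold higher. Such bounds set the mean of the bright organ against the lowest signal that counted as detected on each array of the dim organ.

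The high arrays of jejunum and ileum came from different rats for miR-143 and miR-145 alike. In rat 6 the jejunum was above the ileum (miR-145 at 110 and 35.0), and in rats 4 and 5 it was below (34.3 and 144, then 23.9 and 98.1). miR-1, a muscle miRNA, followed the same pattern, at 103, 70.3 and 10.3 in ileum and 13.5, 10.4 and 49.8 in jejunum of rats 4, 5 and 6, although its 3 low values were not detected. miR-196a, a HOX cluster miRNA chosen here after its values were seen, did not follow it. Its signal was 284, 369 and 249 in ileum and it was detected on no array of jejunum (7.15 to 11.3). The cause of the pattern was not tested.

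**Figure D3:**
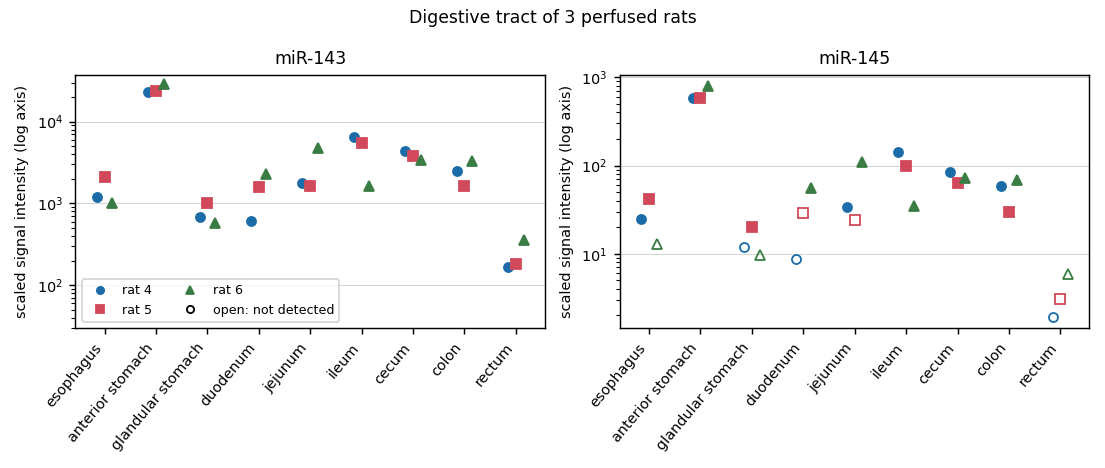
Scaled signal of miR-143 (left) and miR-145 (right) on log axes in the esophagus, both stomach parts and the 6 scraped parts of the intestine, with 1 point per perfused rat and open points where the miRNA was not detected. The anterior stomach is the highest organ in both panels, the rectum the lowest, and the jejunum and ileum of rat 6 lie in the opposite order to those of rats 4 and 5.

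The large intestine (cecum, colon and rectum) differed from the small intestine by -0.86 log2 units for miR-143 (SE 0.19, limma's adjusted p = 6.47e-05), in a comparison with 34.5% of miRNAs called lower. For miR-145 the difference was -0.41 (interval -0.89 to 0.06, adjusted p = 0.190), a value that rests on a rectum at the floor, and it was called at -0.90 with a floor 4 times as low and at -1.38 with normexp, another background correction. Without the rectum both turned direction, to 0.39 for miR-143 (adjusted p = 0.159) and 0.41 for miR-145 (adjusted p = 0.283). The miR-143 call was also lost with the authors' table (-0.31), with the 75th percentile over all miRNAs (-0.27) and with quantile normalization (0.01). In rectum the epithelial markers summed to 40868 to 50090, above cecum (11808 to 32696) and colon (27962 to 35294) but mostly below ileum (48761 to 58387), jejunum (55068 to 74307) and duodenum (57393 to 99088), where miR-143 was higher. The mesenchymal markers summed to 138 to 166 in rectum and were higher in the other 5 regions, from 233 in the lowest array of duodenum to 1273 in the highest of colon. So were 2 endothelial miRNAs, at 54.0 to 68.6 in rectum and from 128 (duodenum) to 709 (cecum) elsewhere. The sum of 4 leukocyte miRNAs was 187 to 494 in rectum and from 668 (ileum) to 5487 (cecum) elsewhere. Their part in the result was not tested.

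The stomach parts together exceeded the 6 intestinal mucosas by 1.33 log2 units for miR-143 (SE 0.19, limma's adjusted p = 1.11e-09) and 1.27 for miR-145 (SE 0.24, adjusted p = 1.81e-06), with 13.3% of miRNAs called higher. With the anterior stomach alone the differences were 3.88 and 4.05. The glandular stomach went the other way for miR-143, with its arrays below every array of jejunum, ileum, cecum and colon. The summed signal of the epithelial markers, at 2876 to 3616 in the anterior stomach, was lower there than in every mucosa. Between both stomach parts and the mucosas, 8 of the 9 epithelial markers were called lower and 1 higher. The part of these markers in the result was not tested. The other tubes with muscular walls lay well below the leading organs. The esophagus, whose muscle is striated in the rat, gave 1183, 2118 and 1020 for miR-143, and the trachea gave 2314, 3728 and 2135. Both overlapped with the colon.

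In the male reproductive tract, miR-143 and miR-145 were highest in the seminal vesicle, followed by the epididymis and the prostate other lobes, which overlapped with each other. Smooth muscle in their walls moves sperm and fluid. The testis gave 3693, 3471 and 3773 for miR-143 and 88.2, 57.2 and 58.6 for miR-145, wholly below both ducts. Seminal vesicle and epididymis exceeded testis by 1.96 log2 units for miR-143 (SE 0.29, 3.90-fold, limma's adjusted p = 1.61e-09) and by 2.30 for miR-145 (SE 0.36, 4.92-fold, adjusted p = 1.18e-08), with 16.5% of miRNAs called higher. With normexp the miR-145 difference was 0.78 and no longer called (adjusted p = 0.0548). The summed epithelial markers moved in the same direction, at 10773 to 15555 in seminal vesicle, 11345 to 14016 in epididymis and 84.1 to 107 in testis. Of the 9, 7 were called higher in the ducts and 1 lower. All 4 mesenchymal markers were called higher there too (median difference 1.15), against 16.5% of all miRNAs. The part of these markers in the result was not tested.

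The prostate was sampled as the ventral lobe and the other lobes. The other lobes gave 9977, 9658 and 9219 for miR-143, and the ventral lobe 4307, 3073 and 3603, with no overlap. The difference was 1.41 log2 units for miR-143 (SE 0.33, limma's adjusted p = 3.38e-04) and 1.65 for miR-145 (SE 0.41, adjusted p = 7.71e-04), and 3 of 3 rats had this direction. The miR-145 call was lost with normexp (0.48, adjusted p = 0.270) and with the authors' table (1.54, adjusted p = 0.393). In this comparison 18.6% of miRNAs were called higher. The summed signal of the 6 striated muscle markers was also higher in the other lobes, at 661 to 2374 against 167 to 246. Of the 6, 2 were detected on all 3 arrays of the other lobes and 1 on all of the ventral lobe. On no array were 2 detected in the other lobes (miR-133a and miR-208) and 4 in the ventral lobe. Of the 4 mesenchymal markers, 3 were called higher and 1 lower in the other lobes (median difference 1.25). The part of these markers in the result was not tested.

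miR-490 was a dim and more restricted miRNA. It was detected on 28 of 165 arrays, on all 3 arrays of 6 organs, on some arrays of 6 and on none of 43. The heart led, with 36.2, 39.6 and 43.5 in the atrium and 34.6, 38.7 and 44.5 in the septum. The anterior stomach gave 22.7, 27.1 and 27.4, and the urinary bladder 32.0, 26.4 and 14.9. Both heart parts lay wholly above 53 other organs and overlapped with each other. The seminal vesicle gave 20.5, 20.7 and 20.8 with 2 of 3 arrays detected. miR-490 entered the tests only through the 6 organs with all 3 arrays detected, and most other organs lay at the floor of the scale. Its F over organs (44.8) therefore depends on the filter and the floor, and no conclusion is drawn from it. With a floor 4 times as high the F was 0.43 and not called.

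The third site of miR-490 was the medulla oblongata and spinal cord. The medulla oblongata gave 21.0, 24.9 and 17.4 and the cervical spinal cord 11.4, 13.7 and 14.1, each detected on 3 of 3 arrays. Lumbar cord, pectoral cord and thalamus had 2 of 3 arrays detected, and cerebral cortex and hippocampus 1 of 3. The cerebellum had 0 of 3, and the medulla was at least 3.90-fold higher than it. The cord levels overlapped with each other.

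The smooth muscle organs divided on miR-490. Aorta and vein, which were among the leading organs for miR-143 and miR-145, had 0 of 3 arrays detected each, as had the epididymis, the glandular stomach and all 6 intestinal mucosas. The anterior stomach was at least 5.49-fold higher than aorta, 4.26-fold higher than vein and 1.87-fold higher than the glandular stomach. The bladder was at least 4.98-fold higher than aorta. Fitted miR-490 differences among these organs depend on the floor of the scale, since with a floor 4 times as high every array of these organs lay at it. They are given only beside their alternatives, in the section on processing below. The limb muscles were not detected either, and the atrium was at least 3.70-fold higher than soleus. The striated markers in heart and soleus had 5 of 6 members detected on all arrays, at 36485 to 43658 in heart and 62548 to 102312 in soleus.

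**Figure D4:**
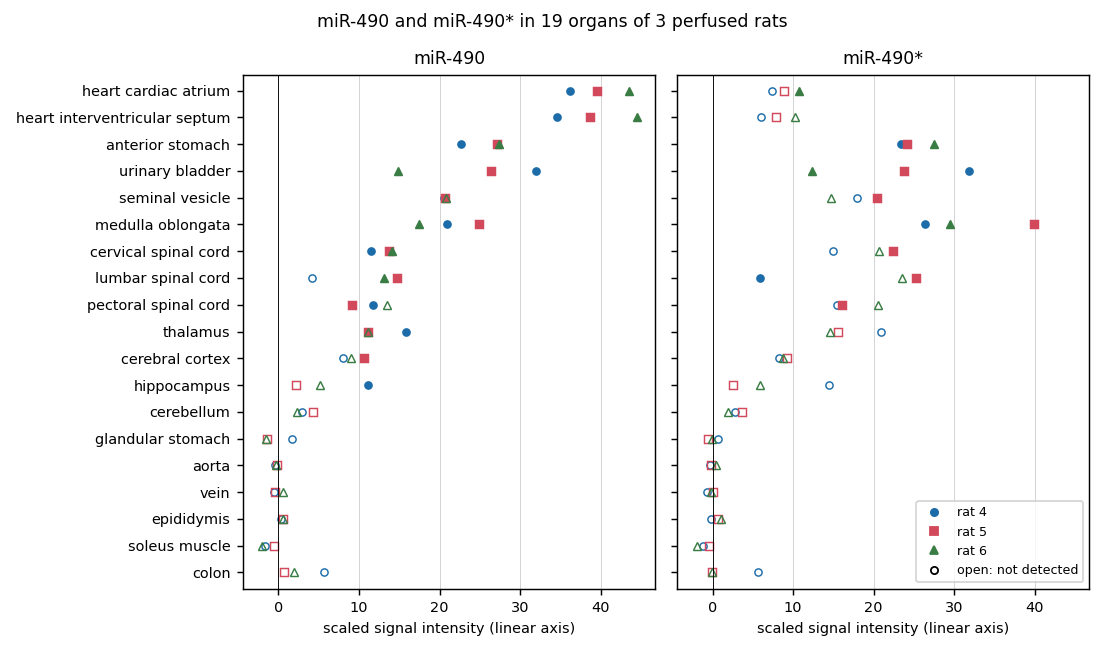
Scaled signal of miR-490 (left) and miR-490* (right) on linear axes in the 12 organs with miR-490 detected on an array and in 7 organs without, with 1 point per perfused rat and open points where the strand was not detected. Heart, anterior stomach, bladder and medulla oblongata stand above 0 for miR-490, whereas for miR-490* the medulla exceeds the heart.

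The partner strand miR-490* was detected on 16 arrays, in much the same organs but in another order. It gave 26.4, 39.9 and 29.5 in the medulla, 23.3, 24.1 and 27.5 in the anterior stomach and 31.8, 23.8 and 12.4 in the bladder, detected on all 3 arrays of each. In the heart it was 7.33, 8.86 and 10.7 in the atrium with 1 array detected and 5.98 to 10.2 in the septum with none. So the medulla lay above the heart for miR-490*, and below it for miR-490, on every array. This difference was seen in the values and not tested. In pancreas the scaled signal of miR-490* was 121 to 203 and not detected. The partner strands of the other 2 miRNAs were near background, with miR-143* detected on 6 arrays and miR-145* on 7. All of these except 1 array of miR-143* in sublingual gland came from bladder, anterior stomach, aorta or seminal vesicle.

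As a description over 55 organ means of log2 signal, without a test, the miRNA most like miR-143 was miR-145 (Pearson r = 0.91). Next came miR-199a-3p (0.64), miR-199a-5p (0.63), miR-214 (0.61) and miR-28 (0.57). For miR-145 the order was miR-143, miR-214 (0.58), miR-199a-5p (0.57), miR-199a-3p (0.57) and miR-152 (0.54). For miR-490 it was 2 probe sets of miR-208 (0.77 and 0.76), miR-208* (0.75), miR-145* (0.46) and miR-499 (0.44). The miR-208 strands, made from cardiac myosin genes, were detected on 6 or 7 arrays, and by Spearman correlation none of the 5 remained among the nearest (0 of 5). Most organs were tied at the floor in these correlations. miR-490 correlated with miR-143 at 0.29 and with miR-145 at 0.31 by Pearson correlation, and at 0.005 and 0.12 by Spearman correlation.

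Of 13 other miRNAs studied in smooth muscle, 5 were higher and 5 lower in the smooth-walled organs than in the other 50, where 12.8% of all miRNAs tested were called higher and 77.4% lower. Their median difference was 0.05 against -0.32 over all miRNAs tested. miR-31 was higher by 2.36 log2 units (limma's adjusted p = 2.80e-35), miR-10a-5p by 1.33 (adjusted p = 1.89e-24) and miR-24 by 0.68 (adjusted p = 4.58e-31). miR-1 and miR-133a, muscle miRNAs that are far more abundant in striated muscle, were lower by amounts of -0.73 and -0.74. miR-21, known for its rise in injured vessels, differed by 0.19 (adjusted p = 0.0197). In the anterior against the glandular stomach 5 of the 13 were higher and 2 lower, against 12.8% and 29% of all miRNAs, with miR-10a-5p at 3.70 and miR-31 at -4.26. The 4 mesenchymal markers were all higher in the smooth-walled organs (4 of 4, median 1.27), against 12.8% of all miRNAs.

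Perfusion with saline, which clears blood from the vessels, was compared over the mean of 5 organs in each rat. In heart atrium miR-143 was 2009, 2067 and 2192 with perfusion and 1937, 2211 and 2152 without. Lung gave 2795, 2299 and 3210 with and 2601, 2568 and 3016 without. miR-490 in the atrium was 36.2, 39.6 and 43.5 with perfusion and 38.2, 47.7 and 43.9 without. The groups overlapped in all 5 organs for each miRNA. The differences were 0.02 log2 units for miR-143 (interval -0.19 to 0.23), 0.16 for miR-145 (interval -0.43 to 0.76) and -0.04 for miR-490 (interval -0.19 to 0.10), each with a limma adjusted p of 1. The miR-490 value is diluted by liver, kidney and lung, which were at the floor in both groups, and the heart parts alone differed by -0.12 in atrium and -0.10 in septum. Of 191 miRNAs tested, 0 (0%) were called by limma and 4 had an unadjusted p under 0.05. The paper reports that the blood-cell miRNAs miR-451 and miR-144 were seen without perfusion and not with it. Neither was called here. The lack of calls from so few rats therefore does not show that perfusion left miRNAs unchanged. Differences of perfusion between organs were called for 0 of 191, with 8 under an unadjusted p of 0.05.

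All 15 arrays of rats without perfusion were scanned on 1 day together with the 5 arrays of rat 4. Within that day rat 4 differed from the mean of rats 1 to 3 by -0.07 for miR-143, -0.16 for miR-145 and -0.10 for miR-490. The organs of the other perfused rats were scanned later, so scan day and rat cannot be told apart for them.

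**Figure D5:**
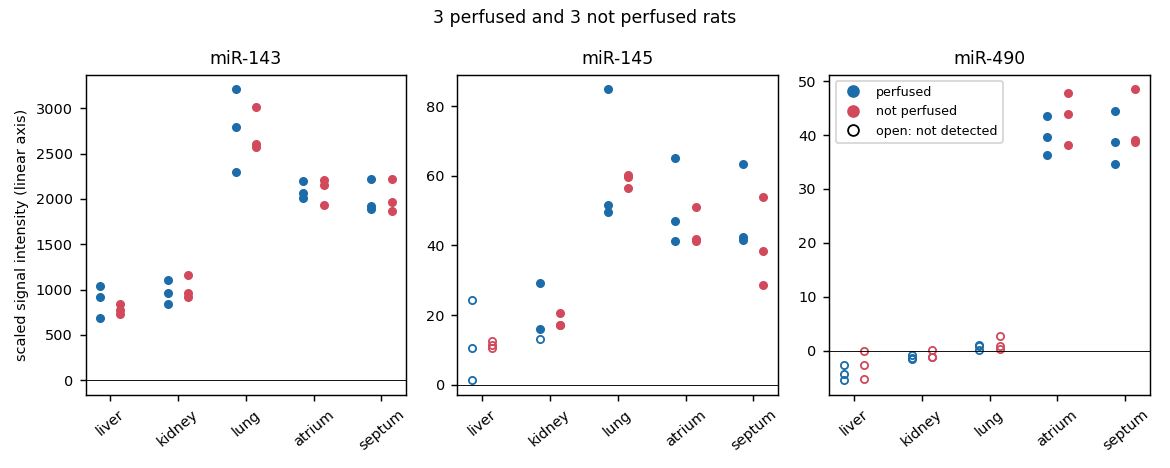
Scaled signal of miR-143, miR-145 and miR-490 on linear axes in 5 organs, with 1 point for each of 3 perfused and 3 not perfused rats and open points where the miRNA was not detected. Perfused and not perfused rats overlap in every organ, and miR-490 is detected only in the heart parts.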

How the data were processed

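Signal intensity was measured on 1-color Agilent miRNA arrays. Per the file headers, spot intensities were corrected for background by Agilent Feature Extraction 10.7.3, and the authors deposited them together with a table of normalized intensities on a linear scale, used after log2 as an alternative. Outlier spots were left out. Each miRNA was the mean of 2 probe sequences of 10 spots, whose log2 values correlated at 0.995 or above for the members. Each array was divided by its 75th percentile, taken among the 37 miRNAs found on all 180 arrays, and brought to a common level of 2118. A floor of 10.8 was applied, then log2 was taken. Tests were two-sided in limma 3.58.1 (R 4.3.3) with a term per organ. They covered the 345 miRNAs detected on all 3 arrays of some organ and were tested on simulated data. Perfusion was tested on rat means over 191 miRNAs. Groups came from the labels, and 0 columns were left unmatched. The number of arrays limits the precision. The 3 members, the lists and the comparisons were chosen with earlier results of these data known. Named miRNAs were the members, their starred strands, the 5 most like each, list members on which a result turned, and miR-196a, chosen later. Numbers pair arrays of a rat, and residuals correlated at 0.05 within a rat and at -0.02 between rats. Alternatives changed scaling, floor, background (normexp on median spot intensity), filter, blocks and arrays. No sequence of the array probes was used.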

Additional observations from a re-analysis of the deposited data

How the results depend on the processing

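Of 567 alternatives to 33 values of the 3 miRNAs, 528 kept direction and side of the threshold, 19 lost a call, 7 gained one and 13 turned direction. miR-143 and miR-145 kept their calls in smooth-walled against other organs, against limb muscle, in stomachs against mucosa and between the stomach parts under all alternatives run. A floor 4 times as high put nearly every miR-490 array at the floor, with differences of 0 or -0.00028 in its comparisons and F = 0.43 over organs. It gave miR-145 0.20 in vessels against hollow organs and 0.75, now called, in aorta against vein. A floor 4 times as low gave miR-145 -0.90 in large against small intestine. The main fits of miR-490, which depend on the floor, gave 0.34 (other organs), 0.47 (limb muscle), 0.61 (mucosa), 1.24 (stomach parts) and 0.48 (bladder). Normexp turned these to -0.66 (other organs), -0.76 (limb muscle), -0.29 (mucosa), -0.76 (stomach parts) and -0.88 (bladder). It gave miR-145 -0.20 in vessels and -1.38 in large intestine. In ducts and prostate it gave miR-145 0.78 and 0.48, and there the calls ended. The authors' table gave miR-145 1.76 in vessels and 1.54 in prostate, neither called, and miR-143 -0.31 in large intestine and 1.12 in aorta. The percentile over all miRNAs gave -0.27 and 1.49 for these, and 1.89 for miR-145 in aorta. Quantile normalization gave 0.0068 for miR-143 in large intestine and 1.09 for miR-145 in aorta. In alternatives chosen after seeing the data, leaving out the glandular stomach gave -1.04 and -1.11 for miR-143 and miR-145 in vessels, and -0.085, 0.10 and -0.14 for miR-143, miR-145 and miR-490 in bladder. Leaving out the rectum gave miR-143 0.39, and keeping organs with both miRNAs detected gave the ratio F = 0.918. Apart from the floor and the organs left out, the cause was not tested. With a filter on detection on at least 50% of the arrays, miR-490 was not tested.

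Leaving out a rat gave 0.43 to 0.83 for miR-143 and 0.49 to 1.26 for miR-145 in vessels, and 0.21 to 0.83 for miR-490 in bladder, the calls being lost without rat 4 and, for miR-145, without rat 6. The fit with rat as replicate block changed no call of a member, with miR-143 in vessels at 0.64 (adjusted p = 0.0113 by limma). No paired analysis was possible for perfusion because the rat numbers of the conditions differ. Of miRNAs called, normexp changed 172 to 311 (limb muscle), 160 to 274 (mucosa), 139 to 329 (large intestine), 75 to 43 (aorta), 144 to 309 (stomach parts), 127 to 296 (bladder) and 93 to 9 (prostate). The higher floor gave 106 (limb muscle), 48 (aorta) and 55 (prostate). The filter gave 131 in place of 311 (other organs), 108 (limb muscle) and 102 in place of 181 (ducts). Leaving out rat 6 gave 49 in aorta, and leaving out the glandular stomach gave 36 in bladder. Of the 5 miRNAs most like miR-490, 0 remained by Spearman correlation and 1 in the authors' table. Low signal over background limits miR-490 everywhere and miR-145 in the organs where it was not detected.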
